A study of Mus musculus with 2 samples.

Results

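The miRNAs described here lie in introns of protein-coding genes and lie outside let-7 and a fixed set of other families and clusters, such as miR-30, miR-26 and miR-103. They were chosen by name and annotation, with no threshold on level, from loci listed in either library. The choice was made with earlier results of these data known. Every named locus whose type was exactly intronic in the deposited files was taken, except those families, which were removed by miRNA number. This gave 43 mature miRNAs of 197 named ones, from 25 hairpins in 24 host genes. Replicate 1 listed 37 of them and replicate 2 listed 40, and 34 were in both.

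The study sequenced small RNA from the liver of C57BL/6 mice, wild type and 2 to 3 months old, that were fed ad libitum. There was 1 group, with 2 libraries called replicate 1 and replicate 2. Whether each library stands for its own animal is not stated, so differences between them may be technical. Named miRNAs held 306351 counts in replicate 1 and 538023 in replicate 2, and a share below is a percentage of these totals. All 4 hepatocyte markers, among them miR-122-5p, were listed and took 4.33% and 4.65% of counts. The 2 endothelial markers took 0.0444% and 0.0355%, 1 of 5 immune markers 0.311% and 0.197%, and 1 of 3 biliary markers 0.0196% and 0.0303%. The erythroid list had 14 counts in replicate 2 only (1 of 3 markers), the neural list 3 in replicate 1 only (1 of 3), and none of 3 muscle and 3 pancreatic markers was listed. Liver holds several cell types, so fewer cells of a type and less RNA per cell cannot be told apart.

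An intronic miRNA is usually transcribed as part of its host gene. The Microprocessor complex cuts the hairpin out of the nascent transcript, Dicer removes the loop, and an Argonaute protein keeps one strand of the duplex, named 5p or 3p after its side of the hairpin. A mirtron is an exception: the whole intron is the hairpin, and splicing replaces the Microprocessor cut. The seed, bases 2 to 8 of the mature strand, sets most target pairing, so the exact 5′ end matters. Host messenger RNA was not measured in these files.

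The 7 most abundant of these miRNAs are shown first because they carry most of the counts. Each line gives the sequence as listed in both libraries, with the seed in capitals.

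miR-423-5p: uGAGGGGCagagagcgagac
miR-455-3p: gCAGUCCAcgggcauauacacu
miR-744-5p: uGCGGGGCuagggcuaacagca
miR-139-5p: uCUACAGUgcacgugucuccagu
miR-186-5p: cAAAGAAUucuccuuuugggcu
miR-501-3p: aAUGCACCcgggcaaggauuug
miR-574-3p: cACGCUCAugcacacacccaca

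These 7 have 7 different seeds. In the RefSeq table of mature mouse miRNAs (GRCm38.p6), which is not complete, no other miRNA listed in either library shared a seed with any of the 38 members found in it.

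The first question was how much of the liver's miRNA these intronic loci supplied. Together they held 10465 counts in replicate 1, or 3.42% (exact 95% interval 3.35 to 3.48), and 20390 in replicate 2, or 3.79% (3.74 to 3.84). The mean was 3.60% ± 0.264 (SD, n = 2). The 27 other named intronic miRNAs, those of the families left out, took 14.7% ± 0.0896. All named intronic miRNAs thus took 18.3% ± 0.354.

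One miRNA made up most of the total. miR-423-5p, from the first intron of Nsrp1, a nuclear speckle protein that regulates splicing, had 6032 counts in replicate 1 and 11477 in replicate 2. It took 1.97% (1.92 to 2.02) and 2.13% (2.09 to 2.17) of named counts, which was 57.6% and 56.3% of the counts of the 43. It ranked 11 among the 151 miRNAs listed in both libraries. Its locus was GRCm38 chromosome 11, 77078125 to 77078144, minus strand.

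miR-455-3p, from intron 10 of the fibrillar collagen gene Col27a1, followed with 1263 and 2612 counts, or 0.449% ± 0.0518. It lay at chromosome 4, 63256904 to 63256925, plus strand, and was exceeded by miR-423-5p 4.78-fold and 4.39-fold. miR-744-5p, from intron 3 of Map2k4, a kinase of the JNK and p38 stress pathways, had 621 and 2030 counts, or 0.290% ± 0.123. Its position was chromosome 11, 65734799 to 65734820, minus strand. The top 3 held 75.6% and 79.1% of the counts of the group.

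Below them the levels fell gradually. miR-139-5p, in Pde2a, the cGMP-stimulated phosphodiesterase, had 435 and 659 counts (0.132% ± 0.0138). miR-186-5p, in Zranb2, an RNA-binding splicing factor, had 319 and 389 (0.0882% ± 0.0225). miR-501-3p, in the chloride and proton exchanger gene Clcn5, had 281 and 389 (0.0820% ± 0.0137), and miR-574-3p, in Fam114a1, 222 and 441 (0.0772% ± 0.00672). The means of miR-186-5p, miR-501-3p and miR-574-3p differed by less than the SD of miR-186-5p, so their order was not resolved.

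miR-140-3p, in the E3 ubiquitin ligase gene Wwp2, had 212 and 374 counts (0.0694% ± 0.000221), and miR-676-3p, in the ectodysplasin gene Eda, 201 and 310 (0.0616% ± 0.00565). miR-1948-3p, in Ttc39c, had 89 and 368 (0.0487% ± 0.0278). miR-342-3p, in Evl, an actin regulator of the Ena/VASP family, had 141 and 173 (0.0391% ± 0.00981). miR-361-3p, in Chm, which encodes a Rab escort protein, had 120 and 169 (0.0353% ± 0.00549). miR-532-5p, also in Clcn5, had 108 and 178 (0.0342% ± 0.00153). miR-664-5p, in Rab3gap2, a subunit of a Rab GTPase-activating complex, had 46 and 95 (0.0163% ± 0.00187), and miR-149-5p, in the heparan sulfate proteoglycan gene Gpc1, 35 and 107 (0.0157% ± 0.00598).

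The remaining members were scarce. Only 12 members in replicate 1 and 14 in replicate 2 reached 100 counts, and 11 and 12 had fewer than 10. Of the 9 members listed in a single library, 8 had between 1 and 6 counts. The other, miR-1964-3p from the zinc finger gene Zfp84, had 47 counts in replicate 2 and was not listed in replicate 1, where 30.0 counts would have been the same share after TMM scaling. An unlisted miRNA sets no upper limit here, because the files list called loci only.

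**Figure D1:**
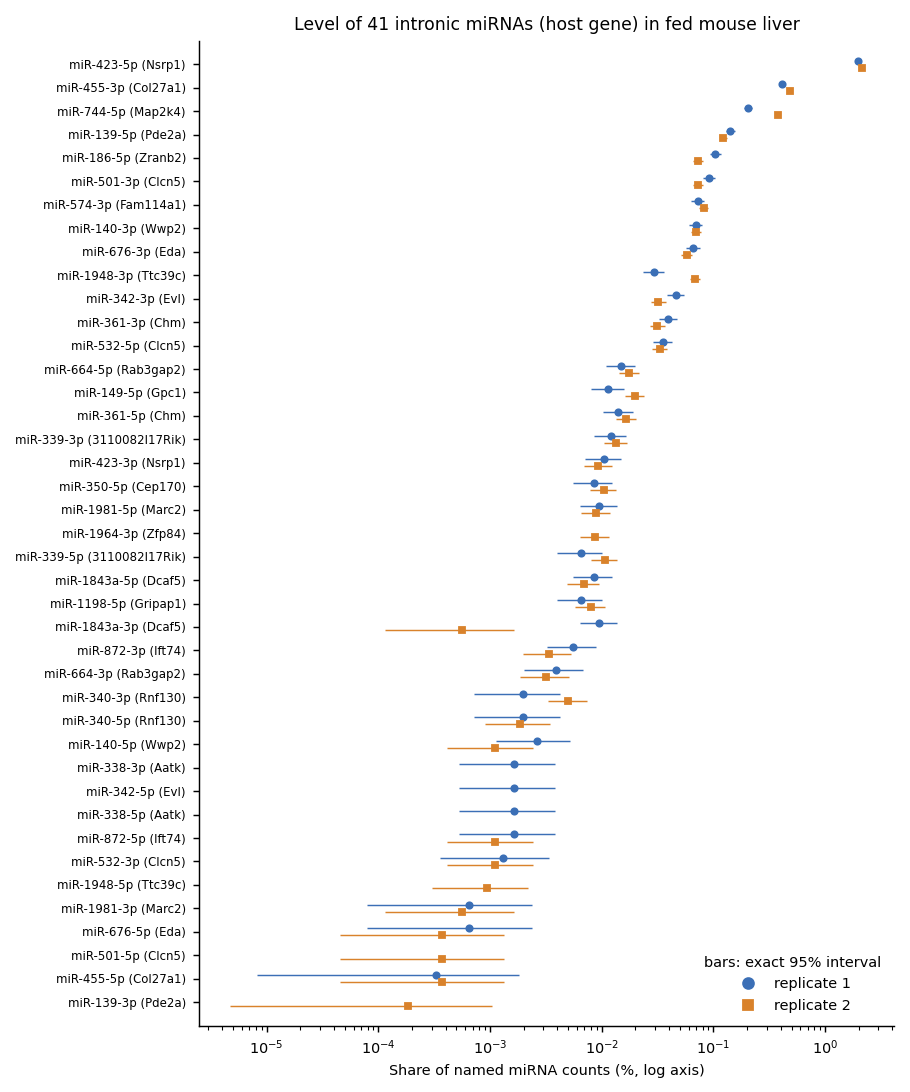
Share of named miRNA counts (log axis, percent) of 41 of the 43 intronic miRNAs in each library, with the host gene in brackets. Bars are exact 95% intervals for counting error. miR-423-5p stands at the top at 1.97% and 2.13%, and miRNAs at the bottom rest on 1 to 6 counts.

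Grouped by the role of the host, the RNA-binding and splicing hosts Nsrp1 and Zranb2 supplied 2.15% ± 0.0928 of named counts, through 3 miRNAs. Of these miR-423-5p of Nsrp1 alone held 2.05%. The signalling hosts Map2k4, Gpc1 and Aatk supplied 0.217% in replicate 1 and 0.397% in replicate 2. Of these miR-744-5p of Map2k4 alone held 0.203% and 0.377%. Clcn5 supplied 0.118% ± 0.0151, and the ubiquitin ligases Wwp2 and Rnf130 0.0766% ± 0.00126. Of the membrane traffic hosts, Chm supplied 0.0506% ± 0.00371 and Rab3gap2 0.0199% ± 0.00133. Evl, the 1 host of the cytoskeletal list, gave 0.0477% and 0.0322%. The 12 hosts outside these lists supplied 0.841% ± 0.0700, mostly Col27a1. No host of the list for lipid and sterol metabolism, and none of the imprinted list, had a member. Ppargc1b, on the lipid list, could not have one, because its miRNA belonged to a family removed by number. miR-33 of the sterol regulator Srebf2 was not listed in either library.

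The second question was where the hairpins sit in their hosts, a property the choice of members used only as the word intronic. In the GENCODE M21 annotation of GRCm38, all 25 hairpins lay inside an intron of a coding transcript and on the strand of the host. Lying in an intron largely restates the choice of members in another annotation. The introns ranged from 82 to 103648 bases, with a median of 15588. Only 4 hairpins were in the first intron, among them those of miR-423, miR-149 and miR-574. The distance to the nearest exon had a median of 2214 bases, and 3 hairpins lay within 200 bases of one. These were Mir574 at 182 bases from the 5′ splice site, Mir455 at 134 bases from the 3′ splice site, and Mir1981. The X chromosome held 6 of the 25 hairpins.

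Mir1981, in intron 5 of Marc2, which encodes a molybdenum enzyme of the outer mitochondrial membrane, was unlike the rest. Its intron was 82 bases long and the listed hairpin covered 79 of them. The 5p arm began at the first base of the intron, and the 3p arm ended 3 bases before its last. That is the geometry of a mirtron, and miR-1981 was the 1 of 5 miRNAs on the mirtron list that was listed. The reference sequence over the listed span (RefSeq, GRCm38.p6, chr1:184822410-184822488, minus strand) is shown with the arms listed in replicate 1 in capitals.

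Mir1981: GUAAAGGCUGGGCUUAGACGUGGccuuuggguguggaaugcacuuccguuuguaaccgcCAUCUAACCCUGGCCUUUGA

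The arm that starts at the splice site, miR-1981-5p, had 29 counts in replicate 1 and 48 in replicate 2, or 0.00919% ± 0.000385. The 3p arm had 2 and 3.

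**Figure D2:**
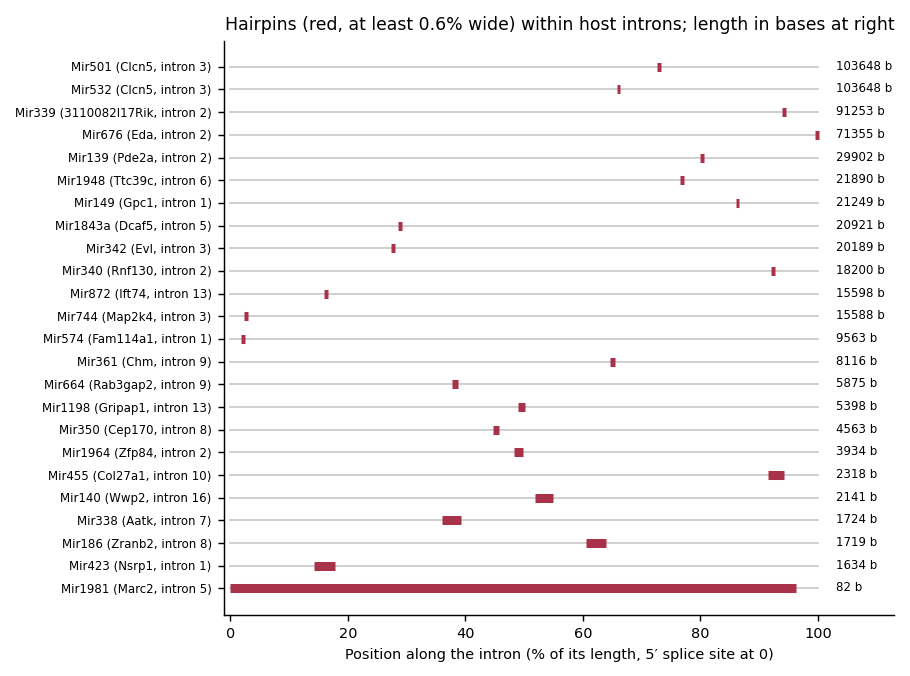
Position of 24 of the 25 hairpins (red), each along its host intron, as a percentage of intron length from the 5′ splice site, with intron length in bases at right. Mir1981 fills its 82-base intron, while Mir501 and Mir532 share 1 intron of 103648 bases.

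Clcn5 was the 1 host with 2 of these hairpins. Mir501 and Mir532 lay in the same intron, 7091 bases apart, and were the 2 listed of 7 miRNAs on the list for this X-linked cluster. Each lay in an intron of 2 of the 3 coding transcripts of Clcn5. The transcript used for that intron is ranked as alternative, not principal. miR-501-3p exceeded miR-532-5p 2.60-fold in replicate 1 and 2.19-fold in replicate 2, and the minor arms were near the limit of counting. miR-532-3p had 4 and 6 counts, and miR-501-5p had 2 in replicate 2 only. Between libraries the log2 ratios were -0.18 (95% interval -0.40 to 0.05) for miR-501-3p, 0.07 (-0.28 to 0.43) for miR-532-5p and -0.12 (-2.14 to 2.20) for miR-532-3p, so none of the 3 passed the test described below. With library totals miR-501-3p passed (-0.34, exact binomial adjusted p = 0.00660) and miR-532-5p turned to -0.094.

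The third question was whether the listed mature sequences had the ends that RefSeq gives. The 5′ end was exact in 60 of 68 listings of the 38 members found in RefSeq. The 5 members with a shifted 5′ end all started later than the reference, by 1 to 3 bases, and therefore carried another seed. For miR-140-3p, miR-361-3p and miR-350-5p the shift was the same in both libraries. Their listed and reference sequences are given because the seed in capitals differs. The listed miR-140-3p and its reference start and end differently:

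miR-140-3p listed in replicate 1: aCCACAGGguagaaccacggac
miR-140-3p in RefSeq: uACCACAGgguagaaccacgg
miR-361-3p listed in both: cCCCCAGGugugauucugauuugu
miR-361-3p in RefSeq: uCCCCCAGgugugauucugauuugu
miR-350-5p listed in both: gUGCAUGCgcuuugggac
miR-350-5p in RefSeq: aAAGUGCAugcgcuuuggg

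miR-140-3p is the strand of this hairpin that was dominant here, and its listed form lacked the first reference base. miR-350-5p, in the centrosomal protein gene Cep170, lacked the first 3, with 26 counts in replicate 1 and 56 in replicate 2. The remaining shifts rested on 5 counts of miR-342-5p and 1 count of miR-455-5p in replicate 1. In replicate 2 miR-455-5p, with 2 counts, had the reference 5′ end. The sources used here do not say how 1 sequence was chosen per locus.

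The 3′ end was less fixed. It was exact in 29 of the 68 listings, longer in 19 and shorter in 20, by 4 bases fewer to 3 bases more. miR-423-5p was listed 3 bases short in both libraries, at 20 bases. Of 30 members found in RefSeq and listed in both libraries, 22 had the same sequence in both and 29 the same 5′ end. In 7 the 3′ end differed between libraries, and in miR-339-5p the ends agreed but the last base differed. There replicate 2 had G23U, counted from 1 at the 5′ end with the reference base first. Some of the longer listings also ended in a base that is not in the reference hairpin. These were miR-140-3p (A23U) and miR-149-5p (G24U) in replicate 2, and miR-872-5p (C23A) in replicate 1.

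**Figure D3:**
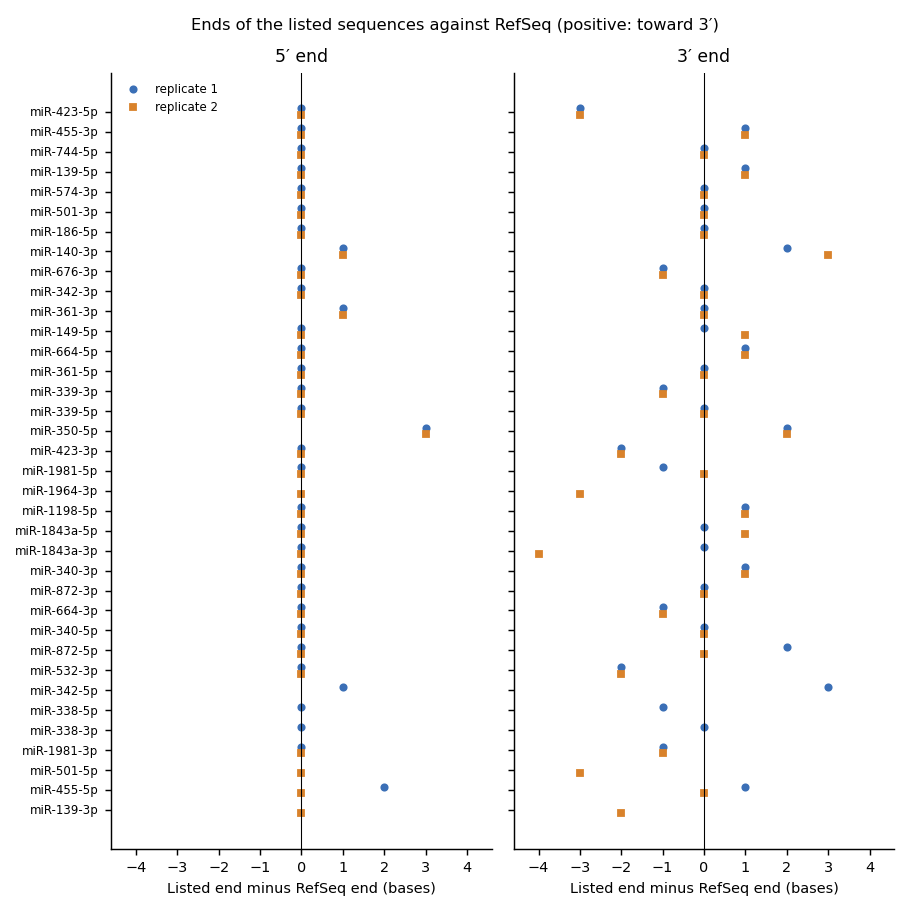
Distance in bases of the listed 5′ and 3′ ends from the RefSeq ends, per library, for 36 of the 38 members found in RefSeq, ordered by their higher count. Most points lie at 0 on the left, with miR-140-3p, miR-361-3p, miR-350-5p, miR-342-5p and miR-455-5p to the right of it, and points on the right panel run from -4 to 3.

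Arm choice was compared next. For 11 of the 25 hairpins each library listed both arms and gave them 20 counts or more in sum. By a 2-sided exact binomial test against 50% in each library, adjusted over the 48 hairpins of the whole series that could be tested, 9 of the 11 had the same dominant arm in replicate 1 and replicate 2. Over all 48 the figure was 93.8%. The 5p arm dominated in 4 and the 3p arm in 5, and 6 had an arm ratio over 10-fold in both libraries, beside 34 of all 48.

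Of the hairpins tested, which needed both arms listed, the most one-sided were Mir455 and Mir423. In Mir455 the 3p arm had 1263 and 2612 counts against 1 and 2 on 5p, so that 5p held 0.0778% ± 0.00184 (SD, n = 2). In Mir423 the 5p arm held 99.5% ± 0.0664, with 32 and 50 counts on 3p. miR-676-5p had 2 counts in each library, and Mir676 had 0.813% ± 0.243 on 5p. miR-140-5p had 8 and 6 counts, and Mir140 had 2.61% ± 1.45 on 5p. Mir532 (96.6% ± 0.220) and Mir1981 (93.8% ± 0.403) kept mainly 5p.

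Other hairpins were less one-sided. In Mir664 the 5p arm had 46 and 95 counts against 12 and 17 on 3p, a 5p share of 82.1% ± 3.90. The files place this hairpin in the small nucleolar RNA gene Snora36b as well, and reads from either RNA cannot be told apart. In Mir361 the 5p arm had 43 and 89 counts against 120 and 169 on 3p, or 30.4% ± 5.74. Mir872, in the intraflagellar transport gene Ift74, had 5 and 6 counts on 5p against 17 and 18 on 3p, or 23.9% ± 1.61.

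Mir339 and Mir1843a were not dominated by 1 arm in both libraries. In Mir339, within 3110082I17Rik, 5p had 20 and 57 counts and 3p 37 and 72, so that the 5p share was 35.1% (exact 95% interval 22.9 to 48.9) and 44.2% (35.5 to 53.2). In Mir1843a, within Dcaf5, a substrate receptor of a ubiquitin ligase, 5p had 26 and 37 counts while 3p had 29 and 3. Its 5p share was 47.3% (33.7 to 61.2) in replicate 1 and 92.5% (79.6 to 98.4) in replicate 2. Among the 11 hairpins, this was the 1 whose arm share differed between libraries by Fisher's exact test (2-sided, adjusted p = 2.82e-05 over 48 hairpins), where 8.33% of all hairpins did.

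The listed 3p sequence of Mir1843a also differed between libraries, with 22 bases in replicate 1 and 18 in replicate 2:

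miR-1843a-3p in replicate 1: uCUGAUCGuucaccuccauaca
miR-1843a-3p in replicate 2: uCUGAUCGuucaccucca

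Its part in the change of arm share was not tested. The files also place this hairpin in the small Cajal body RNA gene Scarna3b, and miR-1843a-5p is nearly identical to miR-1843b-5p of chromosome 1, so its counts are uncertain.

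**Figure D4:**
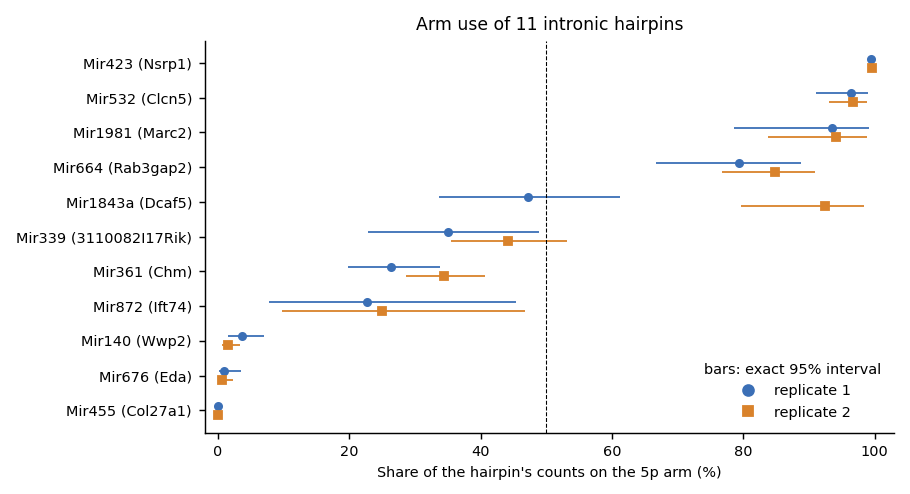
Share of each hairpin's counts on the 5p arm (percent) in both libraries for the 11 intronic hairpins tested, with exact 95% intervals and a dashed line at 50%. Mir1843a moves from 47.3% to 92.5% between libraries, and the 2 libraries' intervals overlap for the other 10.

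Arm use could not be tested for the other 14 hairpins, of which 13 are described here. In 6 of them both libraries listed a single arm, which was miR-149-5p, miR-186-5p, miR-350-5p, miR-574-3p, miR-744-5p or miR-1198-5p. Mir1964 had its 3p arm in replicate 2 only. The hairpins of miR-139, miR-342, miR-501 and miR-1948 had a second arm in 1 library, at 1 to 5 counts. Mir338, in Aatk, a kinase of nervous tissue, had 5 counts on each arm in replicate 1 only. Mir340, in the RING finger gene Rnf130, had 6 counts on each arm in replicate 1, short of the minimum.

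The fifth question was how far the libraries differed in these miRNAs. They were compared by a 2-sided exact binomial test with TMM-scaled depths, adjusted by Benjamini-Hochberg over the 131 named miRNAs tested. The test compares 2 libraries, not conditions, and covers counting error alone. Of the 31 intronic miRNAs tested, 10 (32.3%) passed, 8 higher and 2 lower in replicate 2, against 44.3% of all 131 that passed in either direction (21.4% higher and 22.9% lower). Their median log2 ratio was 0.07 and their median absolute log2 ratio 0.35, beside -0.03 and 0.35 over all tested. When depths were set by library totals, the split became 5 higher and 5 lower, beside 64 of all 131 that passed (48.9%), as the median of all tested moved to -0.19. Over these 131 miRNAs, all listed in both libraries, the common biological coefficient of variation in edgeR was 0.229. It was 0.722 over 149 miRNAs when unlisted ones were taken as 0.

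Among members with over 100 counts in replicate 2, the log2 ratio was highest for miR-1948-3p and miR-744-5p. miR-744-5p went from 621 to 2030 counts (log2 ratio 1.06, 95% interval 0.93 to 1.19, exact binomial adjusted p = 2.35e-63). miR-1948-3p went from 89 to 368 (1.39, 1.06 to 1.75, exact binomial adjusted p = 3.46e-18). miR-149-5p, from 35 to 107, was also higher in replicate 2 (0.95, 0.40 to 1.56), as were miR-455-3p (0.40, 0.30 to 0.50) and miR-423-5p (0.28, 0.23 to 0.32). These 5 remained higher with library totals.

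Of the other 3 that were higher, miR-340-3p went from 6 to 27 counts (1.43, 0.22 to 3.09), miR-339-5p from 20 to 57 (0.84, 0.10 to 1.68) and miR-574-3p from 222 to 441 (0.34, 0.11 to 0.58). None of these 3 passed with library totals. miR-1843a-3p was lower, from 29 to 3 counts (-3.72, -6.28 to -2.23), and so was miR-186-5p, from 319 to 389 in the deeper library (-0.36, -0.58 to -0.14).

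Other abundant members did not pass at TMM-scaled depths. The log2 ratio was -0.05 (-0.23 to 0.13) for miR-139-5p, 0.17 (-0.08 to 0.42) for miR-140-3p and -0.03 (-0.28 to 0.24) for miR-676-3p. It was -0.35 (-0.68 to -0.02) for miR-342-3p, whose exact binomial adjusted p was 0.0692, and -0.16 (-0.50 to 0.19) for miR-361-3p. With library totals miR-139-5p (-0.21, exact binomial adjusted p = 0.0387) and miR-342-3p (-0.52, exact binomial adjusted p = 0.00478) passed, both lower in replicate 2. Both tested arms of a hairpin did not always pass together. miR-339-3p (0.30, -0.28 to 0.92), miR-340-5p (0.04, -1.51 to 1.83), miR-423-3p (-0.01, -0.67 to 0.68) and miR-1843a-5p (-0.15, -0.90 to 0.64) did not pass while the opposite arm did, and a difference between the arms was tested, through the arm shares above, for Mir339, Mir423 and Mir1843a but not for Mir340.

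**Figure D5:**
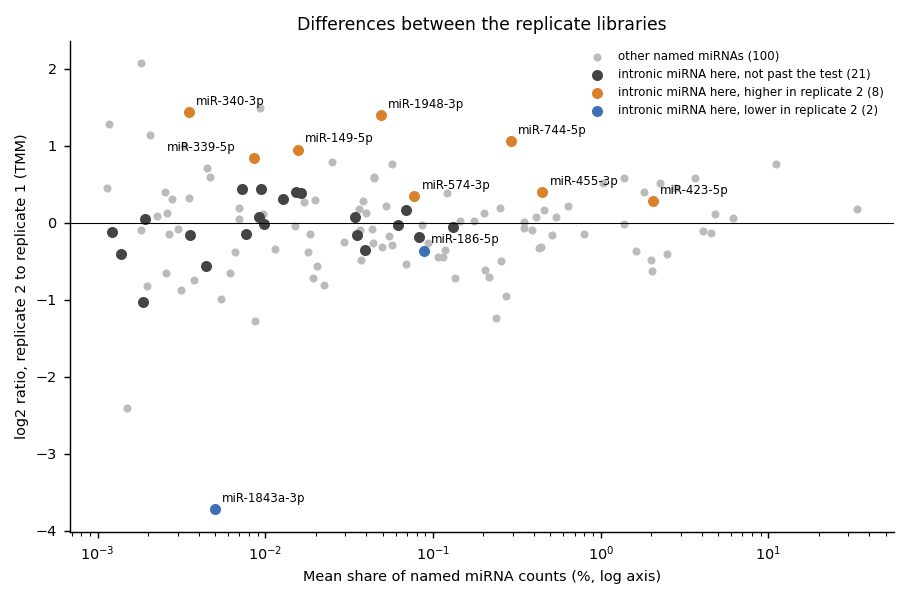
Log2 ratio of replicate 2 to replicate 1 at TMM library sizes against mean share of named miRNA counts (log axis) for 131 tested miRNAs. Grey points are the other named miRNAs. Of the intronic miRNAs, 8 (orange) were higher and 2 (blue) lower in replicate 2, with miR-1843a-3p lowest at -3.72.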

How the data were processed

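The authors deposited a table per library that gives each called locus a raw read count, positions, sequences and annotation, per the file headers. Cutadapt 1.5, FastQC 0.11.2 and Bowtie 1.0.1 were used with GRCm38 (mm10), per the submitters' processing notes. Locus caller and filters were not given in the sources used here. Libraries were made from 1 µg of total RNA with an Illumina small RNA kit, per the labels' protocols.

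Positions in the files counted from 0 and were raised by 1. Where a name had several loci, the highest count was used. The 32 and 33 loci without a miRNA name (5.02% and 2.46% of listed counts) were left out. Intervals are exact (Clopper-Pearson, 95%) and cover counting error only, since reads carry no molecular identifiers. The library test took miRNAs present in each file whose counts summed to 10 or more, with an adjusted p threshold of 0.05 and a prior count of 0.5 for ratios, with edgeR 4.0.16 (TMM), DESeq2 1.42.0, R 4.3.3, Python 3.11.15 and scipy 1.17.1. Each intron was taken from the coding transcript that contains the hairpin and has the best APPRIS rank. A single group leaves no contrast for edgeR's quasi-likelihood test. On counts simulated with counting error alone for 131 miRNAs, the library test called 60.2% at a set 1.5-fold change, 77.8% at 2-fold and 1.15% where none was set.

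Values were named by rule: the 15 highest members, those past the library test, both arms of tested hairpins, members of at least 20 counts in 1 library only, and the highest and lowest member of a host with 2 hairpins. Others, such as the members with shifted ends, were picked with values in view. The members and lists were chosen with earlier results of these data known. One host gene and its miRNAs enter the totals but are not reported here.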

Additional observations from a re-analysis of the deposited data

Results flagged for a closer look

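Outside the named miRNAs, the files listed loci without a miRNA name in introns of other protein-coding genes. They stand here because the description above does not use them and their summed counts in each library exceed the 3 that a count of 0 would allow. Replicate 1 had 7 such loci in 6 genes with 1479 counts, and replicate 2 had 7 in 5 genes with 2913, or 0.457% and 0.526% of all listed counts. None of these genes hosts one of the 43 miRNAs. The highest were in Chst11 (769 and 1629 counts) and Cdk8 (480 in replicate 1, 1091 at the matching locus in replicate 2, where a second Cdk8 locus had 1 count). The loci in Nap1l4 (73 and 50) and, in replicate 1 alone, Rpl3 (56) also overlap small nucleolar RNA genes.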

How the results depend on the processing

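The share of named counts held by the 43 miRNAs was 3.46% over all listed loci, 3.59% with all loci of a name summed and 3.65% with both libraries pooled. Leaving out each replicate in turn gave 3.42% to 3.79%. The count of 10 miRNAs that differed between libraries was 10 of 31 tested, beside 58 of all 131. It was 10 of 31 again with DESeq2 size factors, beside 57 of all 131, and with loci summed, beside 58 of all 131. Without a count minimum it was 10 of 34, beside 57 of all 151. The same 10 passed each time. The count was 8 of 23 with at least 50 counts summed, where miR-1843a-3p and miR-340-3p were no longer tested, beside 55 of all 100. With unlisted miRNAs as 0, which added miR-1964-3p, it was 11 of 32 beside 76 of all 149. With library totals it was again 10 of 31, beside 64 of all 131, and 7 of the 10 were shared. miR-339-5p, miR-340-3p and miR-574-3p were lost and miR-139-5p, miR-342-3p and miR-501-3p gained, all 3 lower. Signs turned with library totals for miR-1981-5p (-0.095), miR-340-5p (-0.12) and miR-532-5p (-0.094). They also turned for miR-423-3p (0.011 with DESeq2 size factors, 0.020 without a minimum, 0.037 with at least 50 counts) and miR-676-3p (0.0084 without a minimum, 0.025 with at least 50 counts). None of these 5 passed under any setting. Hairpins dominated by 1 arm numbered 9 of 12 at a minimum of 10 counts and 7 of 8 at 50. No number over all hairpins of the series is given at these minima, so no comparison with them is drawn there. At the main minimum the number was 9 of 11, beside 45 of all 48. By a 10-fold ratio it was 6 of 11, beside 34 of all 48. No paired analysis was possible because there is a single group. The test between libraries needs both, so it has no value with a replicate left out.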

Other observations

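The hairpin sequences in the deposited files were not all identical to the genome. Of the intronic hairpins described above, 21 in each library lay within a RefSeq hairpin and were set against it. Mir338 was among them in replicate 1 only and Mir1964 in replicate 2 only. In each library 16 of the 21 held at least 1 substitution, not all of them the same hairpins. The listed base was A or U in 28 of 29 substitutions in replicate 1 and in all 27 in replicate 2. The exception was Mir140 with U26C in replicate 1. The reference base was A or U in 10 of them in each library. Over the other named hairpins, 95 of 102 and 110 of 118 substitutions were to A or U, and 75.7% and 77.2% of hairpins held one, beside 76.2% in each library here. Positions relative to the 5p arm were taken for the 18 hairpins in each library whose 5p arm was in the RefSeq table. In these, 22 of 22 substitutions in replicate 1 and 22 of 23 in replicate 2 lay 1 to 5 bases after the last base of that arm, beside 78 of 98 and 92 of 112 in the other hairpins. The exception was the last base of miR-339-5p itself. Of the 3 hairpins without such a position, Mir140 had A66U, the last listed base, in replicate 2.

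Some of these changes were the same in both libraries. With positions counted from 1 at the 5′ end of the listed hairpin and the reference base first, Mir423 had U24A and C25A in both, Mir744 had G23U in both, and Mir139 had G24A and G26U in both. Mir1981 had C25U in both and U26A in replicate 1. Mir186 had C25A in replicate 1 and C25U in replicate 2. The sources used here do not say how the listed hairpin sequence was built.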
